A study of Mus musculus with 8 samples.

Results

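The bone morphogenetic protein (BMP) pathway was followed through 10 genes in the oral mucosa of adult mice. They were the ligands Bmp2, Bmp4 and Bmp7, the inhibitors Grem1, Bambi and Smad6, and the target genes Id1, Id2, Id3 and Id4. The genes were picked by symbol and made up 10 of the 33545 table entries with a count in any sample. Tissue came from wild-type C57BL/6J mice, with no treatment and no further allele named in the labels, at 4 sites. These were the buccal mucosa (the lining of the cheek), the dorsal tongue (its upper face), the hard palate and the ventral tongue (its under face), with 2 replicates each. Every block was cut into 20 sections 14 µm thick, and each section was sequenced as its own barcode (tomo-seq), with transcripts counted at their 3′ ends by unique molecular identifiers (UMIs). Whether replicates came from separate animals is not stated in the labels, so each p-value rests on the spread between these particular samples, and that spread may be technical. The series title calls the mice adult, and no age is given beyond that.

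BMPs are secreted ligands that bind paired serine/threonine kinase receptors, which phosphorylate Smad1, Smad5 and Smad9; with Smad4 these enter the nucleus and switch on target genes. Gremlin 1 traps BMP2 and BMP4 outside the cell, BAMBI is a receptor-like membrane protein without a kinase domain, and SMAD6 blocks the signal inside the cell while its gene is itself a target. ID proteins lack a DNA-binding region and hold E proteins, their helix-loop-helix partners, away from DNA, and Id genes are among the best known direct BMP targets. In stratified epithelia and their papillae, glands and hair follicles, BMP signals are known to pass between epithelium and connective tissue.

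Library totals ran from 7830471 to 26376536 UMIs a sample, and 6 of the 160 sections had fewer than 100000 UMIs. The 6 keratinocyte markers summed to 4309 to 9914 UMIs per 1000000 UMIs counted (CPM) in 7 samples but to 171.1 CPM in buccal mucosa replicate 2. That sample carried 8775 CPM of 7 salivary gland markers, against 1.61 to 23.1 CPM elsewhere, and 1915 CPM of adipocyte markers, against 14.0 to 291.9 CPM. Its Spearman correlation with the other buccal sample was 0.838, while replicates of the other 3 sites reached 0.959 to 0.976. Results on sites are therefore also given without it. Both hard palate samples held the most keratinocyte markers (9914 and 8006 CPM) and the fewest skeletal muscle markers (340.9 and 157.0 CPM, against 8037 to 24500 CPM). In such bulk sections, fewer cells of a type and less RNA per cell cannot be told apart.

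In GENCODE coordinates of GRCm38, Bmp2 (ENSMUSG00000027358) spans chr2:133552159-133562885, Bmp4 (ENSMUSG00000021835) chr14:46383520-46390669 and Bmp7 (ENSMUSG00000008999) chr2:172868012-172940321. Grem1 (ENSMUSG00000074934) lies at chr2:113746164-113758646 and Smad6 (ENSMUSG00000036867) at chr9:63953076-64022059. Bambi is ENSMUSG00000024232. The Id genes are at chr2:152736251-152737410 (Id1, ENSMUSG00000042745), chr12:25093799-25097140 (Id2, ENSMUSG00000020644), chr4:136143497-136145755 (Id3, ENSMUSG00000007872) and chr13:48261228-48266026 (Id4, ENSMUSG00000021379). Genes on the opposite strand overlap Bmp4 (Gm15217 with 4 UMIs and Gm15222 with 70 UMIs in all, against 9729 UMIs for Bmp4) and Id4 (A330033J07Rik with 239 and Gm49291 with 84, against 9411 for Id4). No source used here says whether the counting used strand.

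RefSeq promoter windows (GRCm38.p6) were at hand for 6 of the genes, and no entry was found for Bmp2, Bmp7, Bambi and Id1. The 250 bases before the start site were searched for GGCGCC, a palindrome of the GC-rich kind bound by BMP Smads, and for GTCT on both strands (AGAC when read from the other strand), the core Smad-binding element. The motifs cannot overlap each other. Of all 32851 windows of this length, 9.6% held GGCGCC and 82.9% held GTCT. Shown here are Smad6 and Id4, target genes that were high in both dorsal tongue and hard palate, and Grem1, the inhibitor that was lowest in dorsal tongue. Motif matches are in capitals, and the last base of each sequence is the one before the start site.
Smad6 (chr9:64022060-64022309, minus strand): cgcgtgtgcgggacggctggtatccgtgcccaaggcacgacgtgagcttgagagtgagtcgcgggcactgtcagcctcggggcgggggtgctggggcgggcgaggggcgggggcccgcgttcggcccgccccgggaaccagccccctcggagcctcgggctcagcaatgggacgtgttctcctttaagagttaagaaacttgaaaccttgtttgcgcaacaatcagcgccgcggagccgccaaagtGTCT
Id4 (chr13:48260866-48261115, plus strand): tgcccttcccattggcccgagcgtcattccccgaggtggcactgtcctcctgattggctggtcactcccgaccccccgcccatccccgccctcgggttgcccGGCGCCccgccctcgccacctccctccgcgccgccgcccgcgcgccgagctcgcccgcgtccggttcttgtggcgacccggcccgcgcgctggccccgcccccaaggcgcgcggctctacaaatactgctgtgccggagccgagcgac
Grem1 (chr2:113758649-113758898, minus strand): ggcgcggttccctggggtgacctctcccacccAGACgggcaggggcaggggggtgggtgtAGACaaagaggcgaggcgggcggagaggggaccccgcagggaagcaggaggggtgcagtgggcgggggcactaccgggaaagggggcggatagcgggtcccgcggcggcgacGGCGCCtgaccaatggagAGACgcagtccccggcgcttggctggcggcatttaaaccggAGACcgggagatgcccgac
Grem1 held 1 GGCGCC and 4 GTCT matches, Id4 held 1 GGCGCC and 0 GTCT, and Smad6 held 0 GGCGCC and 1 GTCT, which ends at the start site. Among the windows not printed, Id2 had 1 match of each motif, Id3 had 2 of GTCT only and Bmp4 had 1 of GTCT only. The Id2 and Id3 windows lay inside the GENCODE spans given above, with 161 and 250 of their bases in annotated untranslated regions. Their matches therefore do not lie upstream of the gene as GENCODE places it. A match is a description of letters in the window and shows no bound site.

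Across sites, the 20 sections of a sample were added up and each site was set against the average of the other 3 on the log2 scale (edgeR's quasi-likelihood test, Benjamini-Hochberg adjusted p under 0.05 over 18609 genes). Both hard palate samples lay above the 6 others for 5 of the 10 genes, as for 22.6% of all genes, and Bmp7, Id2 and Id3 passed the threshold. Both dorsal tongue samples lay above the 6 others for Bambi, as for 2.75% of all genes. By site mean the dorsal tongue was also highest for Smad6 and Id4, where it overlapped the hard palate. A test of any difference between the 4 sites passed for 4 of the 10 genes, Bmp7, Bambi, Id2 and Id3, where 4.76% of all genes passed. With the replicate number as a block Bambi alone passed (adjusted p = 0.0443), and Bmp7 (0.0644), Id2 (0.0568) and Id3 (0.099) did not. In epithelium-rich sections alone the same 3 did not pass either (0.0619, 0.0979 and 0.0872). In the hard palate 3 of the 10 were called higher (3.35% of all genes) and 0 lower (6.42%), and in the dorsal tongue 1 was called higher (0.795%) and 0 lower (0.043%). In the buccal mucosa 0 were called in either direction (0.602% of all genes higher, 0.118% lower). There 4 had an unadjusted p under 0.05, as did 3604 of the 18609 genes, and DESeq2 called 3. In the ventral tongue edgeR also called 0 (1.29% of all genes higher, 0% lower). An unadjusted p under 0.05 was found for 6 of the 10 and for 2194 of all genes, and DESeq2 called 5. The share of all genes that DESeq2 called is not given here, so its counts are no result about the 10 genes. Over all genes, the settings with all samples kept called up to 2584 for buccal mucosa and up to 1321 for ventral tongue. The median log2 difference of the 10 genes was 1.45 in hard palate, 0.50 in dorsal tongue, -0.70 in buccal mucosa and -0.88 in ventral tongue, and the medians of all genes lay between -0.02 and 0.03. These comparisons share samples, so their medians are not independent of each other. With either buccal mucosa sample left out, 1 buccal sample remains, whose spread is taken from the other sites. More of the 10 then passed the test of any difference. Calls over all genes also moved widely with the sample left out, so this is no result about the 10 genes. Leaving out any 1 dorsal tongue, hard palate or ventral tongue sample instead gave 0 in the test of any difference.

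**Figure D1:**
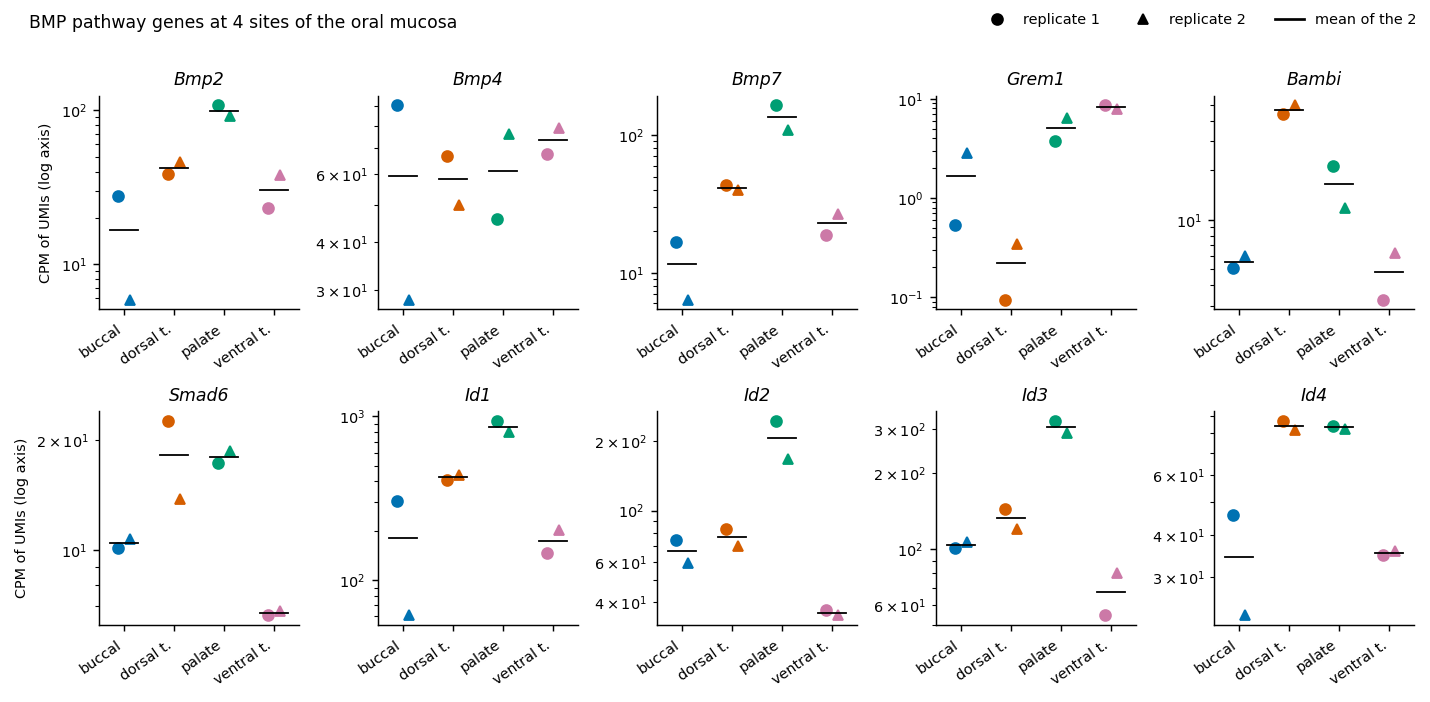
CPM of UMIs (log axis, a separate range for each gene) for the 10 BMP pathway genes in the 8 samples; circles and triangles are replicates 1 and 2 and bars are site means. Hard palate samples are the highest for Bmp2, Bmp7, Id1, Id2 and Id3, dorsal tongue samples for Bambi, and ventral tongue samples for Grem1, while Bmp4 overlaps at all sites.

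Among the ligands, Bmp7 and Bmp2 were highest in the hard palate, and Bmp4 showed no order of sites. Bmp7 was lowest in the buccal mucosa, while Bmp2 there overlapped ventral tongue. Bmp7, a ligand made by many epithelia, was at 164.6 and 108.2 CPM in hard palate replicates 1 and 2 and at 43.5 and 39.8 CPM in dorsal tongue. It was at 18.97 and 26.7 CPM in ventral tongue and at 16.8 and 6.39 CPM in buccal mucosa. No neighbouring sites in this order overlapped. How often neighbouring sites are separate, here and for the genes below, was not counted over all genes. The hard palate mean of 136.4 ± 39.9 CPM (SD, n = 2) stood against 25.4 ± 14.2 CPM (n = 6) elsewhere, a log2 difference of 2.32 ± 0.34 (SE derived from the test) with an adjusted p of 0.0102. Without buccal mucosa replicate 2 it was 2.14 (adjusted p = 0.00146). It lost the threshold without hard palate replicate 1 (2.03, adjusted p = 0.121) and without dorsal tongue replicate 2 (2.35, adjusted p = 0.0502). In the buccal mucosa both samples lay below the 6 others, as for 4.39% of all genes (0 of the 10 genes lay above them, and 7.31% of all genes), and the log2 difference of -2.17 ± 0.43 had an adjusted p of 0.0763.

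Bmp2, a ligand that gremlin 1 binds, was at 107.8 and 91.4 CPM in hard palate, 38.3 and 46.2 CPM in dorsal tongue, 23.2 and 37.9 CPM in ventral tongue and 27.6 and 5.87 CPM in buccal mucosa. The hard palate and dorsal tongue each stood apart from the site after it, and ventral tongue and buccal mucosa overlapped. Both hard palate samples exceeded the 6 others, yet the log2 difference of 1.54 ± 0.48 had an adjusted p of 0.0916. Buccal mucosa replicate 2, the sample poor in keratinocyte markers, set the low end. Without it the difference was 1.30 and passed (adjusted p = 0.0104). DESeq2 on all 8 samples gave 1.58 (adjusted p = 0.0329).

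Bmp4, a ligand known from both epithelium and mesenchyme, was at 90.5 and 28.4 CPM in buccal mucosa, 66.7 and 50.03 CPM in dorsal tongue, 45.8 and 76.3 CPM in hard palate and 67.5 and 79.3 CPM in ventral tongue. Every pair of neighbouring sites overlapped, and the test of any difference gave an adjusted p of 0.839. The largest of its 4 site differences was 0.41 ± 0.42 (log2, ventral tongue, adjusted p = 0.793), an SE as large as the difference. Its spread was widest in the buccal mucosa, where the 2 samples differed most in markers.

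The 3 inhibitors each had another order of sites. The Bambi level was 43.7 and 49.6 CPM in dorsal tongue, 21.1 and 11.9 CPM in hard palate, 5.10 and 6.00 CPM in buccal mucosa and 3.28 and 6.33 CPM in ventral tongue. The dorsal tongue stood clear of the hard palate, the hard palate of the buccal mucosa, and the last 2 sites overlapped. Dorsal tongue exceeded the other 3 sites by 2.86 ± 0.30 on the log2 scale (46.7 ± 4.23 CPM, n = 2, against 8.95 ± 6.63 CPM, n = 6; adjusted p = 0.0106), and both its samples were above the 6 others, as for 2.75% of all genes. Without buccal mucosa replicate 2 the difference was 2.90 (adjusted p = 0.00659). It stayed between 2.74 and 3.06 with any 1 sample left out, but the adjusted p was above 0.05 without either dorsal tongue sample (0.101 and 0.148), without either ventral tongue sample (0.0826 and 0.0734) and without hard palate replicate 2 (0.0603). The filiform papilla keratins, hair-like keratins of the dorsal tongue surface, summed to 5608 and 5954 CPM in dorsal tongue against 2.55 to 1345 CPM elsewhere; their part in the Bambi difference was not tested.

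Grem1 was the scarcest of the 10, with 576 UMIs in all. Ventral tongue held 8.59 CPM (139 UMIs, 95% exact Poisson interval 7.22 to 10.1 CPM) and 7.80 CPM (160 UMIs, 6.63 to 9.10 CPM). Hard palate held 3.78 CPM (67 UMIs, 2.93 to 4.80 CPM) and 6.45 CPM (170 UMIs, 5.51 to 7.49 CPM). Buccal mucosa held 0.533 CPM (9 UMIs, 0.244 to 1.01 CPM) and 2.81 CPM (22 UMIs, 1.76 to 4.25 CPM). Dorsal tongue held 0.0942 CPM (2 UMIs, 0.0114 to 0.340 CPM) and 0.344 CPM (7 UMIs, 0.139 to 0.710 CPM). The intervals cover counting error only. Samples of neighbouring sites did not overlap anywhere in this order, which was not counted over all genes. The means spanned 8.19 ± 0.56 CPM to 0.219 ± 0.177 CPM (SD, n = 2). The tests across sites did not pass with edgeR: the log2 difference was -3.94 ± 0.87 in dorsal tongue (adjusted p = 0.147) and 2.86 ± 0.59 in ventral tongue (adjusted p = 0.0842), and at so few counts these depend on the prior count. Both passed without buccal mucosa replicate 2 (-3.42, adjusted p = 0.0280; 3.39, adjusted p = 0.00579), and both passed with DESeq2 (-4.00, adjusted p = 9.34e-05; 2.87, adjusted p = 0.00121). Both dorsal tongue samples were below the 6 others, as for 9.1% of all genes, and both ventral tongue samples above them, as for 4.13%.

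The Smad6 level was 22.5 and 13.8 CPM in dorsal tongue, 17.3 and 18.6 CPM in hard palate, 10.1 and 10.7 CPM in buccal mucosa and 6.61 and 6.82 CPM in ventral tongue. Dorsal tongue and hard palate overlapped, and the lower sites were separate. Ventral tongue was below the other sites by 1.05 ± 0.26 on the log2 scale without passing (log2 difference -1.05, adjusted p = 0.140), and both of its samples lay under the 6 others. That was so for 3 of the 10 genes in ventral tongue, Smad6, Id2 and Id3, and for 4.01% of all genes. DESeq2 passed Smad6 in ventral tongue (-1.04, adjusted p = 0.0301).

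Id1, Id2 and Id3 were highest in the hard palate, and Id4 was as high in the dorsal tongue as there. Id2 was at 245.2 and 167.1 CPM in hard palate, 82.9 and 70.6 CPM in dorsal tongue, 74.4 and 59.3 CPM in buccal mucosa and 36.95 and 35.03 CPM in ventral tongue. Only dorsal tongue and buccal mucosa overlapped. Its hard palate difference was 1.56 ± 0.22 (log2, adjusted p = 0.00933) with all samples, 1.51 (adjusted p = 0.00408) without buccal mucosa replicate 2 and 1.31 (adjusted p = 0.101) without hard palate replicate 1. In ventral tongue it was -1.39 ± 0.26 (adjusted p = 0.0641), and -1.43 (adjusted p = 0.0151) without buccal mucosa replicate 2.

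Id3 was at 322.2 and 288.8 CPM in hard palate, 144.7 and 120.1 CPM in dorsal tongue, 100.8 and 106.4 CPM in buccal mucosa and 54.4 and 80.3 CPM in ventral tongue, with no overlap of neighbours (not counted over all genes). The hard palate difference of 1.35 ± 0.22 (log2) had an adjusted p of 0.0137, and 1.37 with an adjusted p of 0.00496 without buccal mucosa replicate 2. It missed the threshold without either dorsal tongue sample (adjusted p = 0.0569 and 0.0661), either hard palate sample (0.122 and 0.0660) or ventral tongue replicate 1 (0.0561). Unlike Bmp2 and Id1, Id3 was as high in the keratinocyte-poor buccal sample as in the other one; the cause was not tested.

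Id1 was at 934.9 and 797.5 CPM in hard palate, 410.3 and 438.0 CPM in dorsal tongue, 303.0 and 60.8 CPM in buccal mucosa and 145.8 and 202.0 CPM in ventral tongue. Buccal mucosa and ventral tongue overlapped. Both hard palate samples exceeded the 6 others, as 5 of the 10 genes did (Bmp2, Bmp7, Id1, Id2 and Id3) and as 22.6% of all genes did. The log2 difference of 1.58 ± 0.51 did not pass (adjusted p = 0.103), and it was 1.32 (adjusted p = 0.00413) without buccal mucosa replicate 2. A single hard palate section held up to 2498 Id1 UMIs. From estimated transcripts, which correct for molecules that drew the same UMI, the hard palate difference was 1.83 (adjusted p = 0.0793).

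Id4 was at 86.8 and 81.4 CPM in dorsal tongue, with which the hard palate overlapped at 84.0 and 82.2 CPM, and at 34.98 and 35.9 CPM in ventral tongue and 45.7 and 23.1 CPM in buccal mucosa, which overlapped too. The 4 samples of the first pair of sites thus all lay above the 4 of the second. The same split was seen for Bmp2, Bmp7, Bambi, Smad6, Id1 and Id3, and it was not counted over all genes. The keratinocyte markers split in this way too (5914 to 9914 CPM against 171.1 to 5684 CPM), and their part was not tested. No single-site difference passed: it was 1.09 ± 0.26 in dorsal tongue (log2, adjusted p = 0.173), and 0.96 (adjusted p = 0.0236) without buccal mucosa replicate 2. Scaling by library size moved the median of all genes by 0.30 (log2) in hard palate, -0.24 in dorsal tongue and -0.11 in ventral tongue, and no called gene named here changed direction. It turned the split of calls over all genes in hard palate from 623 higher and 1194 lower to 1405 higher and 1006 lower.

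**Figure D2:**
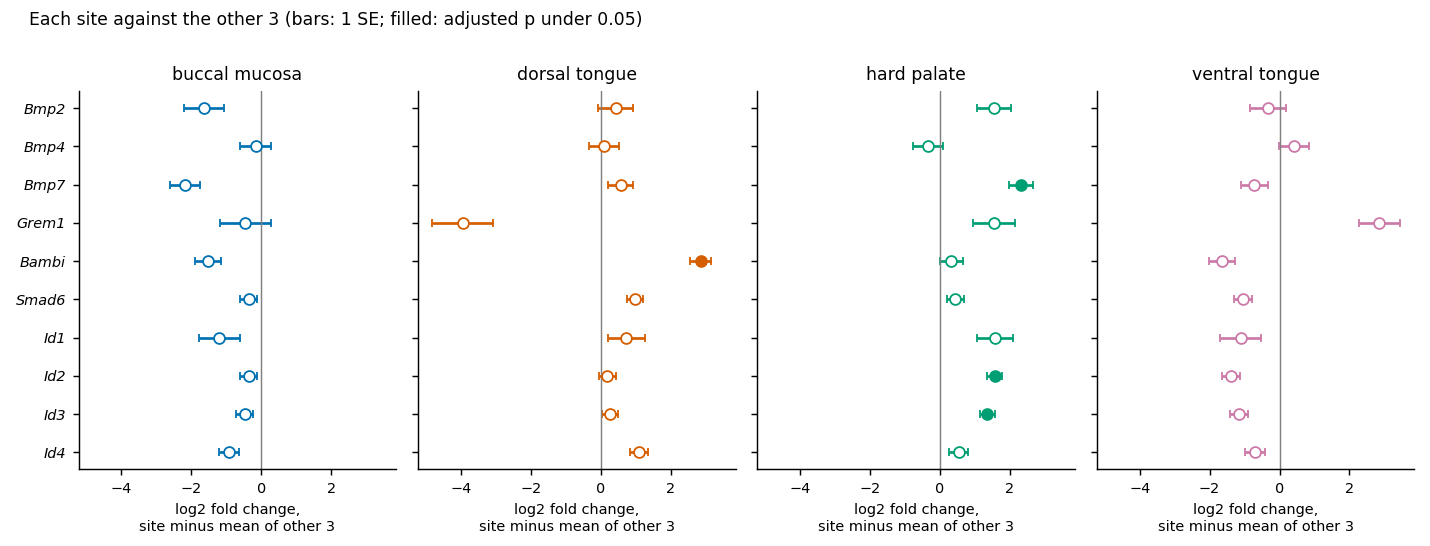
Log2 fold change of each site against the mean of the other 3 for the 10 genes; points are edgeR estimates, bars 1 SE derived from the test, and filled points passed an adjusted p of 0.05. Filled points are Bambi in dorsal tongue (2.86) and Bmp7 (2.32), Id2 (1.56) and Id3 (1.35) in hard palate; Grem1 has the widest bars.

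Through the sections, a score of 20 genes of stratified epithelium, split within each sample, gave 3 to 13 epithelium-rich sections a sample. The score separated the groups weakly in hard palate (mean log2 9.38 against 9.20, and 9.12 against 8.94) and clearly in ventral tongue (8.65 against 7.59, and 8.86 against 8.23). In buccal mucosa replicate 2 it was 5.68 against 3.61, so even its rich sections scored below the mean of the poor sections of every other sample (7.59 to 9.20). Its rich sections held 516.1 CPM of keratinocyte markers, so rich is meant there only relative to its own poor sections. The split was made from expression in these same sections, without the 10 genes in the score, so its p-values are no independent test. Bmp7, Id1 and Id2 were higher in epithelium-rich sections by small amounts, and the other 7 genes did not pass (edgeR with the sample as a block, 17769 genes). This was 3 of 10 called higher where 10.8% of all genes were, and 0 lower where 12.8% were. The median log2 difference of the 10 genes was 0.28 and that of all genes 0.03. Library size scaling changed the calls over all genes from 1925 higher and 2268 lower to 519 higher and 2343 lower, and left Id1 alone among the 10.

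Bmp7 was higher in the epithelium-rich sections of 7 of 8 samples, by 0.46 ± 0.12 on the log2 scale (adjusted p = 0.0159). In buccal mucosa replicate 1 it was at 22.6 CPM in rich against 10.2 CPM in poor sections, and in ventral tongue at 25.3 against 15.6 CPM and 35.9 against 22.9 CPM. Dorsal tongue had 49.8 against 42.5 CPM and 44.6 against 35.6 CPM, hard palate 152.5 against 179.0 CPM and 117.4 against 96.9 CPM, and buccal mucosa replicate 2 7.01 against 6.25 CPM. Hard palate replicate 1 alone went the other way. By section number Bmp7, like Id1, was higher in sections 1 to 10 than in 11 to 20 in 8 of 8 samples, a pattern not counted over all genes. The Bmp7 level was 1.04 to 1.91 times as high, and that comparison gave 0.47 (adjusted p = 0.000976). The call was lost without dorsal tongue replicate 2 (adjusted p = 0.0606), ventral tongue replicate 1 (0.0678) or ventral tongue replicate 2 (0.0719), and under library size scaling (0.0506).

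Id1 was higher in epithelium-rich sections in 8 of 8 samples, which held for 1.33% of all genes. The ratio was largest in buccal mucosa replicate 1 (360.5 against 238.2 CPM) and smallest in hard palate replicate 1 (940.8 against 927.8 CPM). The log2 difference was 0.32 ± 0.08 (adjusted p = 0.0165) in UMIs, 0.23 (adjusted p = 0.113) in reads and 0.22 (adjusted p = 0.0971) in estimated transcripts. Id2 was higher in 7 of 8 samples, by 0.33 ± 0.09 (adjusted p = 0.0226), with 52.2 against 28.9 CPM in ventral tongue replicate 1 and the opposite order, 152.5 against 185.0 CPM, in hard palate replicate 2. For both genes the call was lost when sections were scored by Krt5 and Krt14 alone (adjusted p = 0.152 for Id1 and 0.122 for Id2), and without any 1 of 5 samples, buccal mucosa replicate 1 and each of the 4 tongue samples (0.0505 to 0.0775 for Id1, 0.0665 to 0.113 for Id2).

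**Figure D3:**
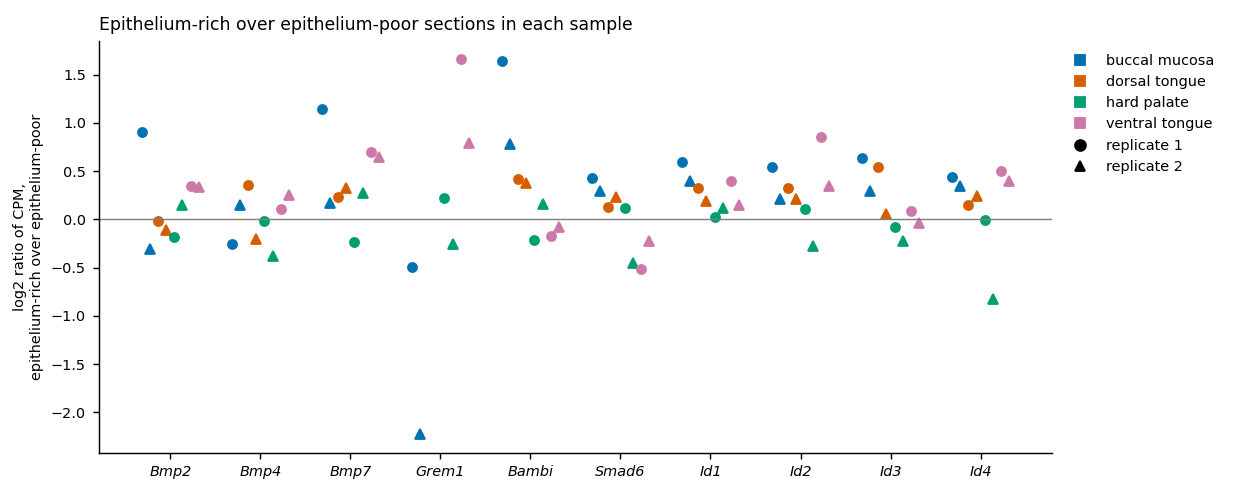
Log2 ratio of CPM in epithelium-rich over epithelium-poor sections for each gene and sample; colours are sites, circles and triangles replicates 1 and 2. Id1 lies above 0 in all 8 samples and Bmp7 and Id2 in 7; Grem1 in dorsal tongue, with 0 UMIs in the rich sections, is not drawn.

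Grem1 lay in different sections at different sites, as a description without a passed test. In ventral tongue the level went down through the blocks of 5 sections, from 15.04 to 14.3, 5.70 and 3.52 CPM in replicate 1 and from 11.5 to 9.58, 6.35 and 3.97 CPM in replicate 2. In dorsal tongue all 2 and 7 UMIs lay in sections 11 to 20, and the 0 UMIs in sections 1 to 10 allow up to 0.333 and 0.320 CPM there. Ventral tongue had 14.6 and 10.5 CPM in the same sections 1 to 10, above those limits. In hard palate the first 5 sections had the lowest level (2.74 and 4.28 CPM) and in buccal mucosa replicate 2 section 12 alone gave 10 of 22 UMIs. The dependence of the rich against poor difference on the site was not past the threshold for Grem1 (adjusted p = 0.377), nor for any of the 10 genes (0.0563% of all genes passed). An unadjusted p under 0.05 was found for 2 of the 10 and for 1414 of 17769 genes, and DESeq2 called 0. On simulated counts this test recovered 22 of 100 dependences of 2 fold, in genes with higher counts than Grem1.

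Bambi went down with section number in dorsal tongue, from 53.2, 53.2 and 43.3 to 30.4 CPM in replicate 1 and from 61.7, 52.7 and 46.0 to 42.0 CPM in replicate 2. In hard palate it went from 28.2 to 12.4 CPM in replicate 1 and only from 14.4 to 10.7 CPM in replicate 2, and in ventral tongue it stayed between 2.30 and 6.74 CPM. Its rich against poor difference of 0.38 ± 0.16 (log2) had an adjusted p of 0.0926. With sections 1 to 10 set against 11 to 20 it was 0.48 (adjusted p = 0.0314), and Bmp2 passed there too (0.34, adjusted p = 0.0329), against 0.24 ± 0.11 (adjusted p = 0.125) by the score.

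Id4 ran in opposite directions. In hard palate it went up with section number in both samples, from 73.8 to 80.1, 89.6 and 98.3 CPM and from 56.5 to 59.8, 84.5 and 113.2 CPM. In the other 6 samples sections 1 to 10 were higher than 11 to 20, by 1.19 to 1.91 times, against 0.810 and 0.580 times in hard palate. The dependence of the rich against poor difference on the site was not past the threshold for Id4 (adjusted p = 0.649). That test used the epithelium score, and in hard palate replicate 1 the rich sections were 5 to 17. It therefore does not test the contrast by section number, which is given as a description. In hard palate replicate 2 Id3 went from 250.7 to 315.8 CPM. Smad6 went from 14.2 to 21.7 CPM in hard palate replicate 1 and from 14.9 to 20.8 CPM in replicate 2. Id1, in contrast, was lower in the last 5 sections of both hard palate samples (787.5 and 736.1 CPM) than in the first 5 (1010.0 and 818.1 CPM). In hard palate replicate 1 the smooth muscle and pericyte markers were at 239.1 CPM in rich against 251.8 CPM in poor sections. In replicate 2 they went from 275.8 CPM in rich to 1223 CPM in poor sections. Their part in these slopes was not tested. Bmp4 had no common direction over the 8 samples, with sections 1 to 10 higher in 4 of 8 samples, and a rich against poor difference of 0.04 ± 0.08 (adjusted p = 0.762). In hard palate, though, Bmp4 went up with section number in both samples, as Id4 did. It went from 35.7 to 44.1, 49.8 and 59.4 CPM in replicate 1 and from 57.3 to 70.8, 82.55 and 88.3 CPM in replicate 2.

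**Figure D4:**
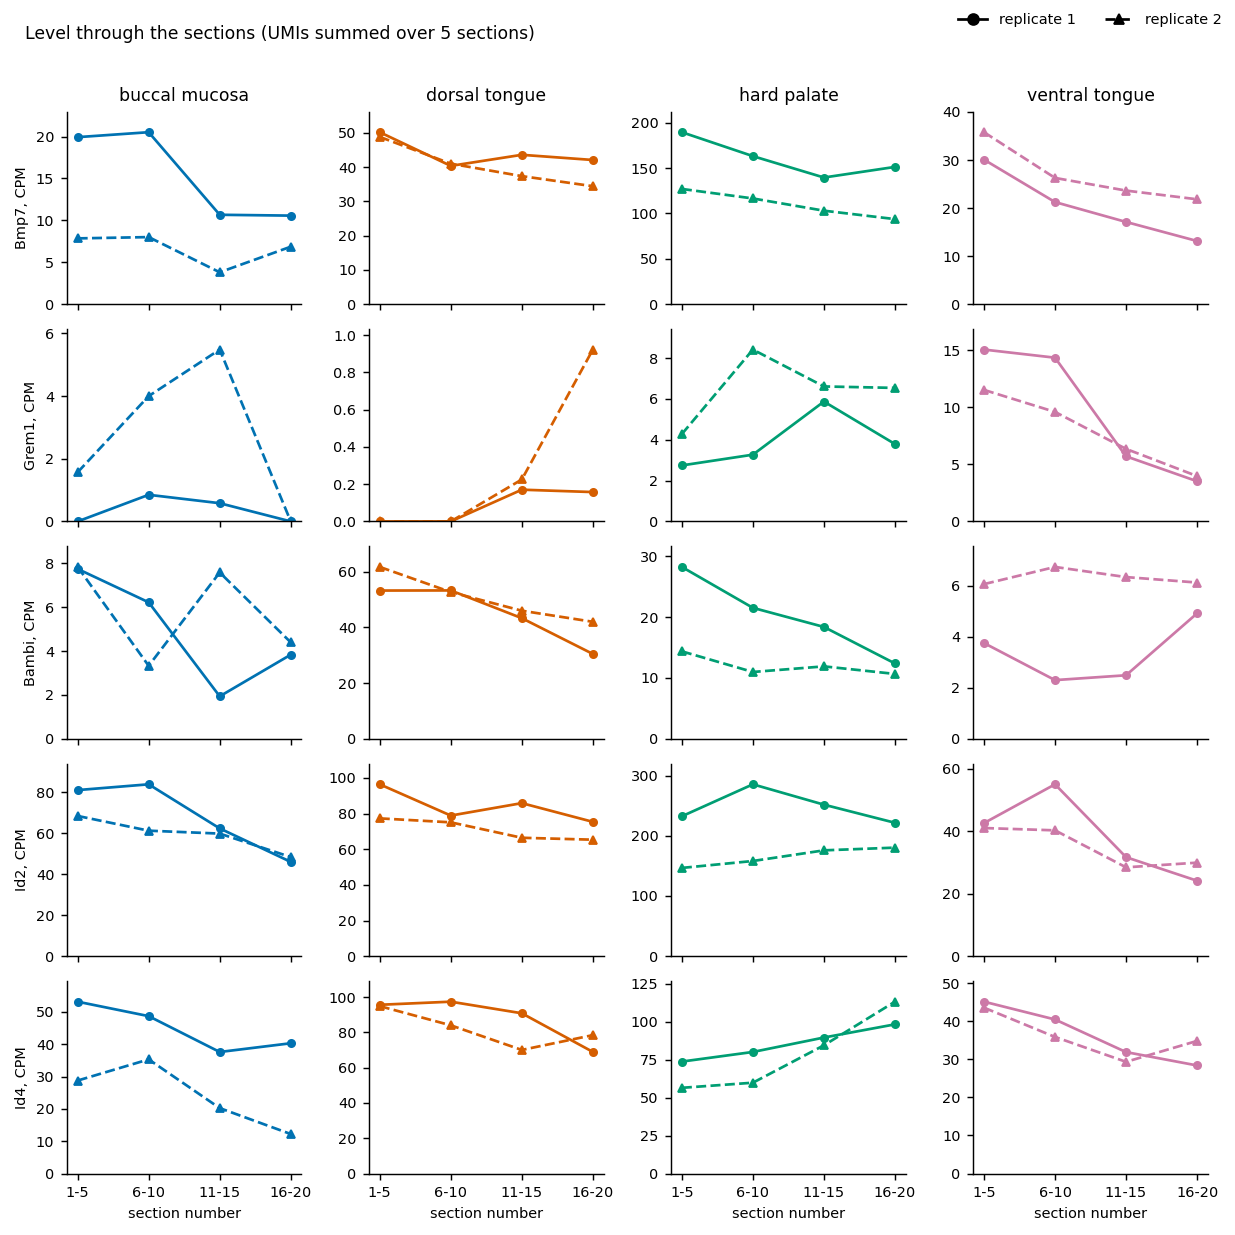
CPM of Bmp7, Grem1, Bambi, Id2 and Id4 (rows, each panel from 0 with its own range) in 4 successive blocks of 5 sections at the 4 sites (columns); solid lines with circles are replicate 1 and dashed lines with triangles replicate 2. Grem1 goes down in ventral tongue and is at 0 in the first 10 dorsal tongue sections, and Id4 goes up in hard palate and is lower in the second 10 sections than in the first at the other sites.

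Likeness between genes was described by Pearson's r of log2(CPM + 10) over all 160 sections, among genes with a mean of at least 20 CPM. Sections of a sample share a library and neighbouring tissue, so r is given without a test, with the value after removing sample means beside it. The genes nearest to Id2 included Id3 (r = 0.854, 0.528 within samples), with Sgcz (0.862, 0.726) and D630045J12Rik (0.854, 0.489). Id1 was closest to Dynll1 (0.935, 0.913 within samples), Krt24 (0.931, 0.620) and Ckmt1 (0.930, 0.740), and Bmp7 to Maf (0.900, 0.471), Slurp1 (0.863, 0.534) and Ap1b1 (0.853, 0.426). Bmp2 was closest to Fmo2 (0.892, 0.522), Slc39a6 (0.892, 0.562) and Crnn (0.886, 0.435). Bambi was closest to Sprr2h (0.855, 0.563), 2300003K06Rik (0.817, 0.555) and Gm11567 (0.810, 0.589), and Id3 to Rnf149 (0.861, 0.578), Gm15832 (0.859, 0.572) and Emb (0.857, 0.707). Sprr2h belongs to a family of near-identical genes whose counts may be mixed. Smad6 was nearest to Prickle2 (0.694, 0.558), Ctnnd2 (0.659, 0.457) and Sostdc1 (0.657, 0.543), and Id4 to Pgm2l1 (0.8, 0.564), Marchf3 (0.782, 0.555) and Rab38 (0.775, 0.526). Bmp4 was nearest to Trp53i11 (0.748, 0.707), 1700025G04Rik (0.742, 0.738) and Pfkp (0.739, 0.682). For Grem1 the nearest were Sfrp1 (0.672, 0.418), Ubxn2a (0.625, 0.315) and Tmem242 (0.563, -0.225), at counts too sparse to read more from.

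Shallow sections moved these values. Over the 154 sections with at least 100000 UMIs, the nearest gene stayed Maf for Bmp7 (r = 0.922, 0.542 within samples), Sprr2h for Bambi (0.884, 0.355) and Sfrp1 for Grem1 (0.72, 0.492). It became Map2 for Bmp2 (0.930, 0.424), Foxq1 for Id4 (0.856, 0.447) and Thy1 for Bmp4 (0.767, 0.502). Id2 and Id3 became nearest to each other (0.898, 0.391). The nearest gene also became Slc39a6 for Id1 (0.95, 0.537) and Emb for Smad6 (0.664, 0.33). Dynll1 came after Slc39a6 for Id1, at 0.945 (0.744 within samples). In these sections Bmp2 and Bmp7 correlated at 0.909 (0.353 within samples), Bmp2 and Id1 at 0.913 (0.365) and Bmp7 and Id1 at 0.903 (0.447). Bmp4 and Bmp7 correlated at 0.118 (0.123). Over all 160 sections the same pairs gave 0.798 (-0.079 within samples) for Bmp2 and Bmp7, 0.879 (0.523) for Bmp2 and Id1, 0.767 (-0.252) for Bmp7 and Id1 and 0.00174 (-0.373) for Bmp4 and Bmp7. The within-sample sign thus turned with the 6 shallow sections for every pair but Bmp2 and Id1.

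Of 59 further pathway genes, 53 were tested across sites and 49 by section. In the hard palate 3 of the 53 were called higher and 3 lower, against 3.35% and 6.42% of all genes, and their median log2 difference was 0.01, against -0.01 for all genes. The receptor gene Bmpr1b was at 28.4 and 16 CPM in hard palate against 3.44 to 7.72 CPM elsewhere (1.72 ± 0.36, adjusted p = 0.0301). Runx2, the bone and cartilage regulator, was at 39.1 and 51.1 CPM against 4.21 to 24.4 CPM (1.69 ± 0.33, adjusted p = 0.0259), and the 6 bone and cartilage markers summed to 12.6 and 14.98 CPM there against 0.424 to 2.25 CPM; their part was not tested. Chrdl1, a secreted antagonist, was called higher (1.84 ± 0.42, adjusted p = 0.0415), although its hard palate values of 15.2 and 43.5 CPM overlapped buccal mucosa. The co-receptor gene Rgma (-1.39 ± 0.32, adjusted p = 0.0403) and the antagonist gene Chrdl2 (-3.71 ± 0.65, adjusted p = 0.0177, at most 1.02 CPM anywhere) were called lower. Tbx3, a T-box factor gene regulated by BMP, was lower in hard palate (11.5 and 18.7 CPM, -1.91 ± 0.29, adjusted p = 0.0109) and higher in dorsal tongue (103.3 and 91.6 CPM, 2.21 ± 0.23, adjusted p = 0.0106), against 24.5 to 36.5 CPM in the other 2 sites. The hard palate calls of Bmpr1b, Runx2 and Rgma each had an adjusted p above 0.05 without any 1 tongue or hard palate sample (0.0556 to 0.233, 0.0625 to 0.124 and 0.0843 to 0.198). The Tbx3 call ended without hard palate replicate 1 in hard palate (0.0992), and without any 1 tongue sample in dorsal tongue (0.0915 to 0.141). Chrdl1 lost its call without hard palate replicate 2 (0.25) or any 1 tongue sample, and Chrdl2 without either hard palate sample (0.143 and 0.123), either dorsal tongue sample or ventral tongue replicate 1. With the replicate number as a block the hard palate calls of Rgma (-1.34, adjusted p = 0.0626) and Chrdl1 (1.73, 0.0633) were lost, and so was the call of Chrdl2 for any difference between sites (0.0868). In epithelium-rich sections alone the hard palate calls of Bmpr1b (0.057), Runx2 (0.181), Rgma (0.139) and Chrdl1 (0.0588) were lost. In the dorsal tongue 1 of 53 was called, Tbx3, and in buccal mucosa and ventral tongue 0 were.

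By group, 0 of 7 tested further ligands, 2 of 10 receptors and co-receptors, 2 of 15 secreted antagonists, 0 of 10 Smads and their regulators, 2 of 8 further targets and 0 of 3 E protein genes passed in hard palate. The 5 most abundant genes that did not pass at any site were Tcf4, an E protein gene (120.3 to 235.6 CPM), the Smad corepressor gene Ski (103.4 to 177.8 CPM), Fstl1 (94.3 to 179.4 CPM), the type II receptor gene Bmpr2 (75.9 to 168.2 CPM) and the antagonist gene Nbl1 (69.4 to 123.1 CPM). Among the signal carriers Smad1 had the widest range. It was at 103.7 and 63.6 CPM in hard palate, 63.99 and 26.4 CPM in buccal mucosa, 31.5 and 48.4 CPM in dorsal tongue and 33.6 and 49.8 CPM in ventral tongue, with a hard palate difference of 0.69 ± 0.38 (log2, adjusted p = 0.307). Smad4 ranged over 31.1 to 58.95 CPM, Smad5 over 20.4 to 41.5 CPM and Smad9 over 0.556 to 3.06 CPM, and none of the 4 passed at any site.

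By section, 8 of the 49 further genes were called lower in epithelium-rich sections and 3 higher, against 12.8% and 10.8% of all genes, and their median log2 difference was 0.02. Nog, which encodes the antagonist noggin, was lower in rich sections in 8 of 8 samples (-0.70 ± 0.13, adjusted p = 0.00391), as were 7.78% of all genes. It was at 19.8 against 36.7 CPM and 19.2 against 26.0 CPM in ventral tongue and at 8.36 against 15.3 CPM and 11.9 against 23.8 CPM in dorsal tongue. The ligand gene Bmp6 was also lower in 8 of 8 samples (-0.85 ± 0.14, adjusted p = 0.00121), with 14.8 against 39.4 CPM in ventral tongue replicate 1 and 23.8 against 24.1 CPM in buccal mucosa replicate 2. Bmp5, another ligand gene, was lower by a log2 difference of -1.17 ± 0.25 (adjusted p = 0.00763), with 2 samples, hard palate replicate 1 and buccal mucosa replicate 2, in the opposite order. Eng (-0.51), Rgmb (-0.34), Chrd (-0.50), Hey1 (-0.56) and Chrdl2 (-2.03) were the other 5 called lower, and Smad7 (0.43), Sostdc1 (0.39) and Dlx5 (0.45) those called higher. Endothelial markers, which bear on Eng, were lower in rich than in poor sections in all 8 samples; their part was not tested. The calls of Nog, Bmp6, Bmp5 and Rgmb held with each sample left out in turn, and each of the other 7 was lost without at least 1 sample: without buccal mucosa replicate 1 for Eng (adjusted p = 0.0513) and without ventral tongue replicate 1 for Chrd (0.0507), Hey1 (0.0939), Chrdl2 (0.0561), Smad7 (0.0714), Sostdc1 (0.103) and Dlx5 (0.0764), among others for the last 5. Scoring sections by Krt5 and Krt14 ended the calls of Smad7 (adjusted p = 0.108), Sostdc1 (0.179), Dlx5 (0.0669), Eng (0.0934) and Chrd (0.236), and library size scaling ended those of Smad7 (0.0726), Sostdc1 (0.095) and Dlx5 (0.0901), which were all 3 called higher.

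**Figure D5:**
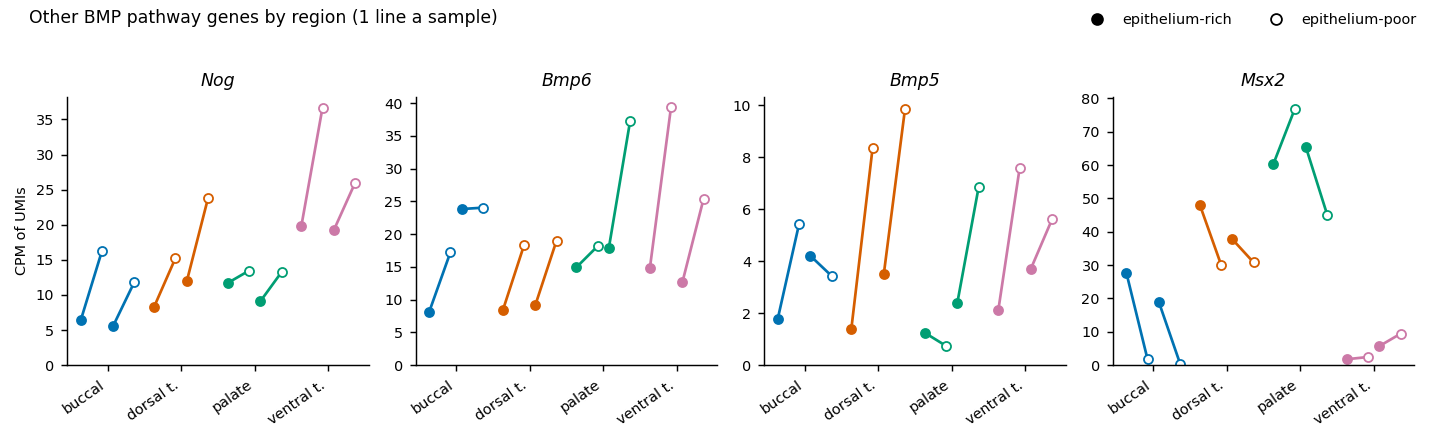
CPM of Nog, Bmp6, Bmp5 and Msx2 in epithelium-rich (filled) and epithelium-poor (open) sections, 1 line a sample, replicate 1 left of replicate 2 at each site. Nog and Bmp6 are lower in the rich sections of all 8 samples, and Msx2 is lower there in both ventral tongue samples but far higher in both buccal samples.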

How the data were processed

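UMI counts, read counts and estimated counts of transcripts per gene and section were deposited by the authors, 3 tables a sample; the estimated counts follow from the UMI counts by a correction for molecules that drew the same UMI. Per the labels' protocols, single sections became CEL-seq2 libraries, read on a NextSeq500. The submitters' processing notes name STAR 2.7.9a, Trim Galore 0.6.10 and the GRCm38 build; no source used here names the counting program. Of 33545 entries, 413 named several genes; none named a gene described here.

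Section UMIs were added up for each sample or region. Genes passed filterByExpr, scaling was TMM, and the test was the quasi-likelihood one of edgeR 4.0.16 in R 4.3.3, with Benjamini-Hochberg adjustment over all genes. The SE is the log2 difference divided by the square root of F. Epithelium-rich sections were those above Otsu's threshold of the mean log2(CPM + 1) of 20 epithelial genes, after a running median of 3 sections. DESeq2 1.42.0, RLE and library size scaling, no filter, reads, estimated transcripts (rounded), a replicate block, other section splits and leaving out samples were alternatives. On simulated counts, the hard palate test (17476 genes) recovered 96 of 100 genes changed by 2 fold and 100 of 100 changed by 4 fold, and the test of any difference 81 and 100 of 100. The rich against poor test (16885 genes) recovered 100 of 100 at both sizes, and the test of its dependence on the site (16833 genes) 22 of 100 at 2 fold and 98 of 100 at 4 fold. The simulation gave every gene the same fixed dispersion and, before the change, the same mean share in all samples. Only well-counted genes were changed, and Grem1 lay below their level. These rates therefore need not hold for the spread of the real samples. The 10 genes, the wider lists, the tests and the rule for names (all 10 genes; further pathway genes that passed, or up to 5 a list by level; the 3 nearest genes by likeness) were chosen with earlier results of these data known.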

Additional observations from a re-analysis of the deposited data

Results flagged for a closer look

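Msx2, a homeobox gene induced by BMP, was the single gene of the pathway lists whose epithelium-rich against epithelium-poor difference depended on the site by the test of that dependence (edgeR, adjusted p = 0.0388, where 0.0563% of all genes passed). It was at 27.7 CPM in rich against 1.76 CPM in poor sections of buccal mucosa replicate 1 and at 18.9 against 0.468 CPM in replicate 2. That sample, poor in keratinocyte markers also in its rich sections, counted 3 Msx2 UMIs in its poor sections. For Msx2, dorsal tongue had 48.0 against 30.1 CPM and 37.7 against 30.8 CPM. Ventral tongue went the other way at low levels, 1.78 against 2.46 CPM and 5.74 against 9.45 CPM, and the hard palate samples disagreed, 60.3 against 76.7 CPM and 65.3 against 45.2 CPM. The adjusted p was 0.0573 with sections scored by Krt5 and Krt14, and above 0.05 without buccal mucosa replicate 1 (0.0608), either dorsal tongue sample (0.0897 and 0.281) or either ventral tongue sample (0.158 and 0.255). DESeq2 gave no adjusted p for it.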

How the results depend on the processing

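Counts here are of the 10 genes called. For any difference between sites, 4 became 9 with no filter on low counts, 9 with DESeq2 and 2 in epithelium-rich sections alone. For buccal mucosa, 0 became 3 with no filter, 3 with DESeq2 and 1 in epithelium-poor sections alone. For dorsal tongue, 1 became 3, 2 with DESeq2 and 2 in rich sections alone, and for hard palate 3 became 6 with no filter and 5 with DESeq2. For ventral tongue, 0 became 3, 5 with DESeq2, and 1 in rich or in poor sections alone. Between rich and poor sections, 3 became 1 with library size scaling, 1 with reads, 1 with estimated transcripts, 1 with the Krt5 and Krt14 score and 5 with sections 1 to 10 against 11 to 20. The dependence on the site went from 0 to 1 (Grem1) with no filter. Over all genes, the settings with all samples kept called 2 to 2584 for buccal mucosa, 83 to 1282 for dorsal tongue and 48 to 1321 for ventral tongue. They called 2862 to 4938 for the section difference and 3 to 589 for its dependence on the site. With 1 sample left out the counts ranged over 0 to 9 for any difference, 0 to 5 for buccal mucosa, dorsal tongue and ventral tongue, 0 to 6 for hard palate, 0 to 4 for the section difference and 0 for its dependence on the site. Over all genes, the count called for any difference was 886, 0 to 5684 with 1 sample left out and 362 to 4522 under the other settings; for hard palate it was 1817, 318 to 5526 and 735 to 3728. The cause was not tested, beyond there being fewer samples. Of 557 repeats of the 32 single-gene calls, 394 kept the direction and the threshold, 163 kept the direction alone and 0 reversed. Dropping sections under 100000 UMIs, chosen after seeing the data, left 4 for any difference.

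Replicate numbers were not treated as pairs. The deviations of same-numbered samples correlated at 0.544 between the dorsal and ventral tongue and at 0.14 between buccal mucosa and hard palate, but at -0.21 to -0.103 for the other 4 pairs of sites. With the replicate number as a block, 1 of the 10 (Bambi) was called for any difference, 3 for hard palate, 1 for dorsal tongue and 0 for buccal mucosa and ventral tongue. No paired fit was made for sections, where the sample is the block.

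Depth limits Grem1 most, with 2 and 7 UMIs in the dorsal tongue samples, and with 2 samples a site an effect within the replicate spread was not detectable.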
